A study of Mus musculus with 12 samples.

Results

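The leptin receptor gene Lepr, the adipogenic genes Pparg, Cebpa, Adipoq, Lpl, Fabp4 and Plin1, and the marrow stromal transcription factor genes Ebf1, Ebf3 and Foxc1 were followed across 4 sorted mesenchymal populations of mouse bone and marrow. They were chosen by name, by matching the Ensembl identifiers of the counts to mouse gene symbols, and make up 10 of the 49585 genes counted. All 10 were among the 18648 genes tested, which reached 0.5 CPM (reads of the gene scaled by the effective size of the library) in 1 library or more. Each population was sorted in 3 samples of 2000 cells from untreated wild-type C57BL/6 male mice aged 8 to 10 weeks, and all cells were negative for CD45, Ter119 and CD31, a gate against blood, erythroid and endothelial cells. Itga8+ MSCs were Itga8+Alcam+Sca-1- cells. Itga8-Alcam+ BLCs, called BLCs from here on, were the Itga8- cells of the Alcam+ fraction, which the labels also call osteoblasts, and Sca-1+ MSCs were Alcam-Sca-1+ cells. By the study's methods these 3 came from bone fragments after the marrow had been flushed out, by collagenase digestion. CD51+CD140a+ MSCs came from the flushed marrow, digested with Accumax, so that the population, its place in the bone and its digestion cannot be told apart. Leptin receptor protein was not part of any gate. The labels do not say whether the 3 samples of a population came from separate mice, so p-values here measure only the spread between these samples.

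Leptin receptor-positive stromal cells lie around the vessels of adult marrow, secrete the niche factors that hold blood stem cells, and can form bone and marrow fat. They carry part of the programme of the fat lineage without being fat-storing cells. In that programme the nuclear receptor PPARγ (Pparg) and C/EBPα (Cebpa) drive each other and switch on fat cell products such as adiponectin (Adipoq), lipoprotein lipase (Lpl), the lipid carrier FABP4 (Fabp4) and the droplet coat protein perilipin 1 (Plin1). EBF1, EBF3 and FOXC1 are transcription factors known to keep such stromal cells able to support blood formation.

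The upstream sequences of Adipoq, Pparg and Plin1 are given because Adipoq and Plin1, both products of mature fat cells, had very different levels in these libraries, and Pparg encodes a regulator of both. They are RefSeq promoters on GRCm38, read 5′ to 3′ on the strand of the gene, without bases that GENCODE M21 places in an exon. Capitals mark matches to the C/EBP motif TTNCNNAA or, in Plin1, to the EBF motif CCCNNGGG as well, on either strand, and no matches overlap. Adipoq lies on the plus strand and its window is chr16:23146286-23146535. The window of Pparg, also on the plus strand, is chr6:115421816-115422065 and precedes the RefSeq start that lies farthest into the gene. Outside exons, no match to either motif lay in the 250 bases before its other RefSeq starts, at 115361144 and 115362349. Plin1 lies on the minus strand, and its window, chr7:79732904-79733026, runs from 250 to 128 bases before the RefSeq start.
Adipoq: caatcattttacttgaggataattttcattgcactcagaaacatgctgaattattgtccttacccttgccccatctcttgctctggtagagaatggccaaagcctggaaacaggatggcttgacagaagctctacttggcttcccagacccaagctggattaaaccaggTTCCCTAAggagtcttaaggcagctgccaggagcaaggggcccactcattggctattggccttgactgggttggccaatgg
Pparg: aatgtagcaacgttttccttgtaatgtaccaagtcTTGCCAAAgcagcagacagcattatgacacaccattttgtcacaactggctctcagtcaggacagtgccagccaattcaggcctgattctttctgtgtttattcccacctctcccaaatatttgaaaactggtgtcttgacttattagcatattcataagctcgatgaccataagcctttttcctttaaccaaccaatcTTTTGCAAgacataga
Plin1: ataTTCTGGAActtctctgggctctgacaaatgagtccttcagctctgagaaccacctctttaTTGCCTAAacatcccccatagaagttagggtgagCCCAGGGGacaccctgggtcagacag
The C/EBP match in Adipoq starts 81 bases before the start of the gene, those in Pparg start 215 and 16 bases before the RefSeq start named above, which is inside the gene, and those in Plin1 247 and 187 bases before its RefSeq start, also inside the gene as GENCODE M21 draws it, with the EBF match at 153. Over windows from 250 bases before to 50 after a RefSeq start, 8 of the 10 genes had an entry, with 12 promoters in all, and Lpl and Fabp4 had none. The C/EBP motif was in 6 of the 12, and in 40.7% of the 32851 promoters of all genes. The EBF motif was in 2 of the 12, those of Ebf3 and Plin1, and in 13.7% of all promoters. The forkhead motif GTAAACA and the direct repeat bound by PPAR and RXR were in none of the 12, and in 3.65% and 0.381% of all promoters.

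Library totals on genes ran from 17580677 to 31332475 reads, with the 3 largest in CD51+CD140a+ MSCs, and 3 counts, taken as the floor of detection, were worth 0.0819 to 0.18 CPM. Floors cover counting error only, since PCR copies are not independent molecules. Pearson's r of log2 CPM across genes was 0.855 and 0.905 between Itga8+ replicate 2 and the other 2 Itga8+ libraries, and 0.919 to 0.988 between any other 2 libraries of a population. That library also held the most blood-cell RNA, with a sum over 10 myeloid markers of 7343 CPM against 78.9 to 2288 in the others, and over 7 erythroid markers of 1598 against 125 to 434. Tendon fibroblast markers (6 genes) summed to 83.4 to 113 CPM in CD51+CD140a+ MSCs and 3787 to 23543 in bone-fragment libraries, smooth muscle and pericyte markers (5 genes) to 24.6 to 72.4 and 124 to 577, and skeletal muscle markers (5 genes) to no more than 39.9 in any library. The study reports Tnmd and Kera, both on the tendon list, as genes highly expressed in Itga8+ MSCs themselves. The tendon sum therefore cannot be read as RNA of other cells alone. The part of other cells in the differences below was not tested. Pdgfra, the gene of the CD140a gate, was at 681 to 867 CPM in CD51+CD140a+ MSCs and as high, 734 to 1019, in Sca-1+ MSCs. All 15 further LepR+ stromal markers, the niche factor genes Cxcl12 and Kitl among them, were called higher in CD51+CD140a+ MSCs than in each other population. Of all genes, 14.3%, 14.9% and 9.30% were called higher against Itga8+ MSCs, BLCs and Sca-1+ MSCs. The sum of the 15 was 64906 to 85605 CPM in CD51+CD140a+ libraries, 3629 to 4153 in Sca-1+ and 778 to 1424 in the remaining ones. The name LepR+ stroma is therefore used here for CD51+CD140a+ MSCs. The markers were chosen with earlier results of these data known, so they give no independent support for the name. In bulk RNA from sorted cells, fewer expressing cells and less RNA in each cell cannot be told apart.

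CD51+CD140a+ MSCs had by far the highest levels of the leptin receptor, of Pparg and Cebpa and of adiponectin and lipoprotein lipase. Of the 10 genes, 9 were called higher than in Itga8+ MSCs, where 14.3% of all genes tested were, 7 than in BLCs (14.9% of all genes), and 9 than in Sca-1+ MSCs (9.30%). None of the 10 was called lower in these comparisons, against 21.2%, 20.4% and 11.2% of all genes, and calls in either direction made up 35.6%, 35.3% and 20.5%. A call needed a fold change above 2 and an adjusted p (FDR, after Benjamini and Hochberg) below 0.1 in the two-sided quasi-likelihood test of edgeR, with all 12 libraries in 1 fit. Libraries did not overlap for 8, 8 and 10 of the 10, and for 44.4%, 49.8% and 45.9% of all genes. The median log2 fold change of the 10 was 5.31, 5.17 and 5.19, the last 4.92 with Plin1 at the bound that its counts of 0 allow, and that of all genes -0.18, -0.091 and 0.0025. Together the 10 genes took 1.34% to 1.54% of the counts of each CD51+CD140a+ library and 0.0172% to 0.0572% of each other library. Without Itga8+ replicate 2, Plin1 lost its call against Itga8+ MSCs (FDR 0.191) and Fabp4 gained one (FDR 0.0272), and 12.3% of all genes were called higher, with a median of -0.048. The 3 comparisons share the CD51+CD140a+ libraries.

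**Figure D1:**
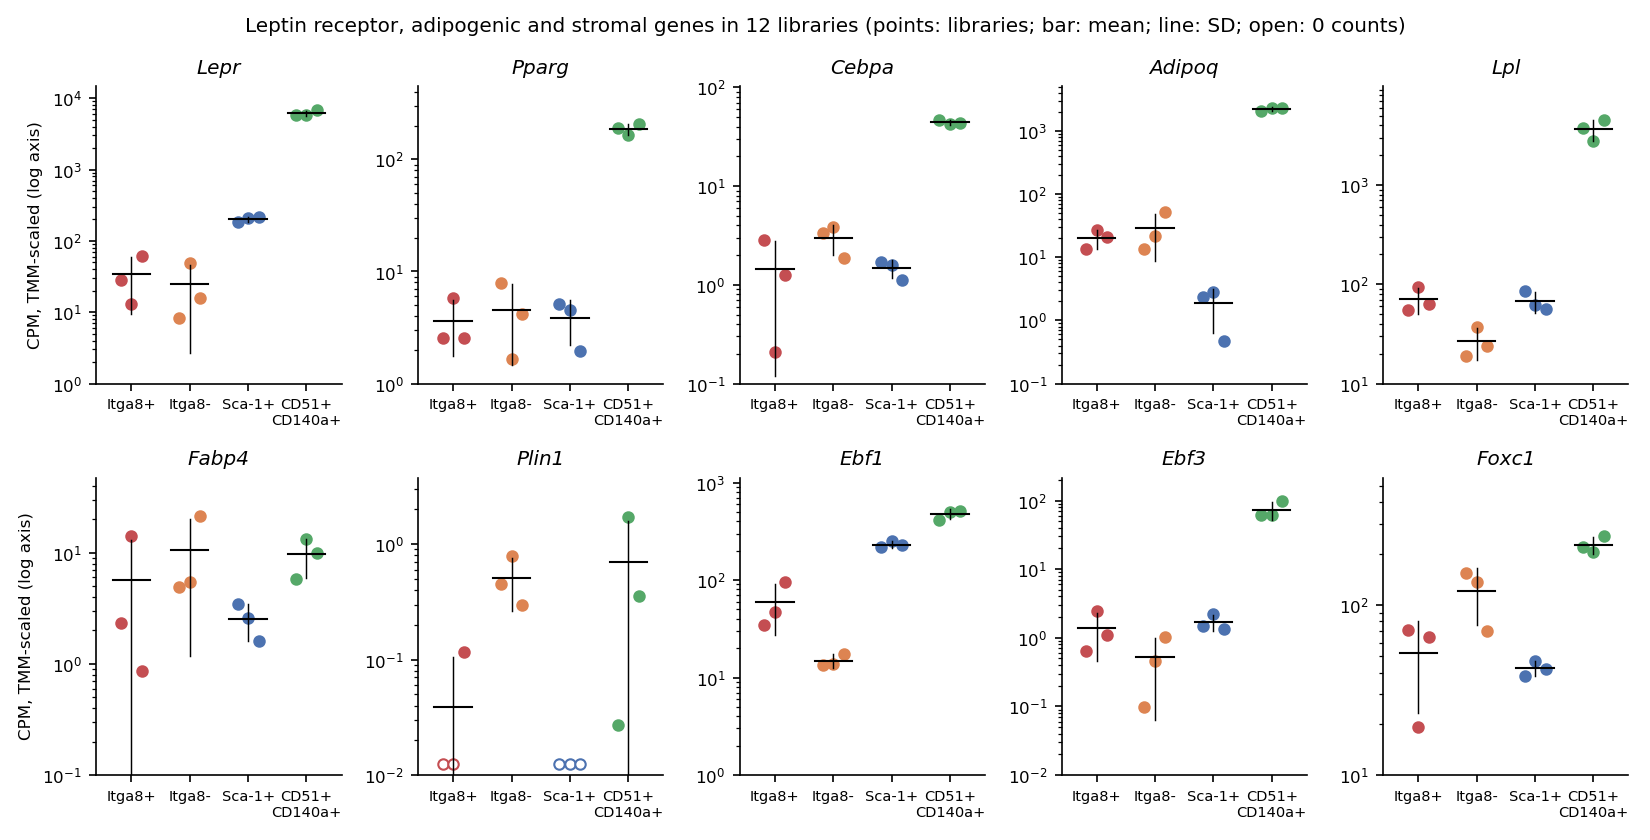
TMM-scaled CPM of the 10 genes in each of the 12 libraries, on log axes, with the mean as a bar and the SD as a line that is cut at the axis where it would reach 0 or less. Open circles are libraries with 0 counts. The CD51+CD140a+ libraries lie above all others for 8 of the 10 genes, and overlap with other libraries for Fabp4 and Plin1.

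Lepr encodes the receptor through which leptin, the hormone of fat stores, acts. Its level in the 3 CD51+CD140a+ libraries was 5725, 5868 and 6737 CPM (6109.9 ± 548, SD, n = 3), and in the Sca-1+ libraries 182, 208 and 214 CPM (201 ± 16.9, n = 3). The Itga8+ libraries had 28.1, 13 and 61.7 CPM (34.3 ± 24.9, n = 3) and the BLC libraries 8.26, 49.2 and 15.9 CPM (24.4 ± 21.8, n = 3). The libraries thus formed 3 separate levels, with CD51+CD140a+ MSCs at the top, Sca-1+ MSCs between, and both Alcam+ populations overlapping at the bottom. The fold change of CD51+CD140a+ over Sca-1+ MSCs was 30.4, with a log2 value of 4.92 ± 0.71 (SE) and an FDR of 0.000388. It was 178 over Itga8+ MSCs (log2 7.48 ± 0.8, FDR 3.99e-05) and 249.7 over BLCs (log2 7.96 ± 0.81, FDR 2.96e-05). These sizes moved with single libraries, to a log2 value of 8.21 over Itga8+ MSCs without Itga8+ replicate 3 and 8.99 over BLCs without Itga8- replicate 2. Lepr was also not uniform in bone fragments. Sca-1+ MSCs had 5.87 times the level of Itga8+ MSCs (log2 of Itga8+ over Sca-1+ -2.55 ± 0.64, FDR 0.019) and 8.23 times that of BLCs (log2 -3.04 ± 0.65, FDR 0.00681). Without the same libraries these values were -3.32 and -4.11. Between the Alcam+ populations the log2 fold change was 0.49 ± 0.6 with an FDR of 0.869. For each of the 5 pairs of populations that differed, an exact two-sided permutation test over the libraries gave p = 0.1, the smallest value that 3 against 3 allow.

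Leprot, which lies just upstream of Lepr on the same strand and encodes a protein that limits receptors at the cell surface, had a different distribution. It was at 152, 183 and 178 CPM in CD51+CD140a+ MSCs and between 94.7 and 306 CPM in the other libraries, with no call in the 6 comparisons. Per base of exon (TPM, the level scaled by exon length), Lepr was 8.63 to 10.2 times as high as Leprot in CD51+CD140a+ libraries and 0.0115 to 0.245 times as high in the others. No exon of either gene overlaps another gene, and 97.5% of the 50-base words of Lepr and 97.9% of those of Leprot occur in no other gene.

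Of 12 genes around leptin receptor signalling, 5 were called higher in CD51+CD140a+ MSCs than in each other population, beside 14.3%, 14.9% and 9.30% of all genes against Itga8+ MSCs, BLCs and Sca-1+ MSCs. The 5 were Stat5a and Stat5b, transcription factors activated below cytokine receptors, Socs3, a feedback inhibitor of the receptor, and Irs1 and Irs2, adaptors shared with insulin signalling. Against Itga8+ MSCs the log2 fold change was 2.76 ± 0.58 for Irs1, 2.49 ± 0.61 for Irs2, 1.95 ± 0.58 for Stat5b, 1.68 ± 0.56 for Stat5a and 1.23 ± 0.52 for Socs3. Ptpn11, a phosphatase bound by the receptor, was lower than in Itga8+ MSCs (log2 -1.5 ± 0.41), a call lost when Itga8+ replicate 2 was left out. Jak2, the kinase on the receptor, and Stat3, its main target, passed the test against none of the 3 populations, with log2 values over Itga8+ MSCs of 0.65 ± 0.58 and 0.7 ± 0.47. The median of the 12 was 0.68 over Itga8+ MSCs, 0.64 over BLCs and 0.78 over Sca-1+ MSCs. Lep, the gene of leptin itself, had no count in any of the 12 libraries.

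The regulators Pparg and Cebpa were low in all 3 bone-fragment populations and high in CD51+CD140a+ MSCs. Pparg had 191, 165 and 206 CPM in CD51+CD140a+ MSCs (187 ± 20.5, n = 3). In the 9 other libraries it lay at 1.67 to 7.87 CPM, with population means of 3.64 in Itga8+ MSCs, 4.58 in BLCs and 3.86 in Sca-1+ MSCs. All CD51+CD140a+ libraries stood above all others, and the 3 remaining populations overlapped. The fold change was 51.3 over Itga8+ MSCs, 40.9 over BLCs and 48.5 over Sca-1+ MSCs, with log2 values of 5.68 ± 0.63, 5.35 ± 0.62 and 5.6 ± 0.63 and FDRs of 5.57e-05, 7.44e-05 and 6.70e-05. The log2 value over BLCs was 6.01 without Itga8- replicate 1. Cebpa had 46.9, 42.6 and 43.2 CPM in CD51+CD140a+ MSCs (44.2 ± 2.36, n = 3) and 0.208 to 3.85 CPM elsewhere. Its fold change was 30.7 over Itga8+ MSCs, 14.6 over BLCs and 30.0 over Sca-1+ MSCs (log2 4.94 ± 0.69, 3.87 ± 0.65 and 4.91 ± 0.69, FDR 0.000278, 0.001 and 0.000337). The log2 value over Itga8+ MSCs was 5.91 without Itga8+ replicate 1. Among bone-fragment populations the highest mean of Cebpa was in BLCs, without a call. The BLC libraries, at 3.34, 3.85 and 1.86 CPM, lay just above the Sca-1+ libraries, at 1.71, 1.58 and 1.12 (log2 1.04 ± 0.62, FDR 0.25). A stretch of 1.93% of the exon bases of Cebpa lies opposite the gene Gm45091, and without a stated use of strand reads from both genes cannot be told apart there.

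Among 10 other regulators of fat cell formation, 6 were called higher and 2 lower in CD51+CD140a+ than in Itga8+ MSCs, beside 14.3% and 21.2% of all genes. The counts were 4 and 1 against BLCs (14.9% and 20.4% of all genes), and 5 and 1 against Sca-1+ MSCs (9.30% and 11.2%). Klf15, a late activator of the programme, had 48.8, 73.8 and 45 CPM in CD51+CD140a+ MSCs against 4 to 6.06 in Itga8+ MSCs (log2 3.47 ± 0.49). Zfp467, which favours fat over bone in stromal cells, had 12.7 to 16.4 CPM against 1.1 to 1.93 (log2 3.16 ± 0.79). Nr1h3, the oxysterol receptor LXRα, had 23.2 to 37.1 CPM against 2.52 to 7.27 (log2 2.71 ± 0.46). These 3 were called higher in CD51+CD140a+ MSCs against each population. Zfp423, a marker of committed preadipocytes, was called higher than in the Alcam+ populations, with log2 1.79 ± 0.67 over Itga8+ MSCs, but its log2 value over Sca-1+ MSCs was 0.46 ± 0.65 with an FDR of 0.74. Without Itga8+ replicate 2, 5 genes rather than 6 were called higher than in Itga8+ MSCs, with a median of 1.13. Srebf1 and Klf5 were the regulators called lower than in Itga8+ MSCs (log2 -1.74 ± 0.71 and -1.04 ± 0.43). The median of the 10 was 1.44, 0.92 and 0.96 over Itga8+ MSCs, BLCs and Sca-1+ MSCs.

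Adiponectin is a hormone made by fat cells, and its gene had the highest level per base of exon of the 10 in CD51+CD140a+ MSCs. Adipoq had 2079.9, 2309.9 and 2350.2 CPM there (2247 ± 146, n = 3). Its rank by TPM among all genes of the library was 10, 13 and 11. It had 13.4, 27.1 and 21 CPM in Itga8+ MSCs (20.5 ± 6.86, n = 3), 13.3, 21.5 and 51.3 CPM in BLCs (28.7 ± 19.99, n = 3) and 2.38, 2.8 and 0.468 CPM in Sca-1+ MSCs (1.88 ± 1.24, n = 3). Below the top the order was therefore the opposite of that of Lepr, with Sca-1+ MSCs lowest and no overlap between their libraries and the Alcam+ ones. The fold change of CD51+CD140a+ MSCs was 109.6 over Itga8+ MSCs, 78.3 over BLCs and 1195 over Sca-1+ MSCs (log2 6.78 ± 0.73, 6.29 ± 0.71 and 10.22 ± 0.84, FDR 4.08e-05, 5.92e-05 and 6.30e-06). Itga8+ MSCs had 10.9 times and BLCs 15.3 times the level of Sca-1+ MSCs (log2 3.45 ± 0.64 and 3.93 ± 0.65, FDR 0.00388 and 0.00146). Without Itga8- replicate 3 the log2 value was 7.01 for CD51+CD140a+ MSCs over BLCs and 3.22 for BLCs over Sca-1+ MSCs. The Alcam+ populations overlapped (log2 of Itga8+ over Itga8- -0.49 ± 0.57, FDR 0.854).

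Lipoprotein lipase is secreted and releases fatty acids from lipoproteins in the blood. Lpl had 3729.8, 2769 and 4521 CPM in CD51+CD140a+ MSCs (3673 ± 877, n = 3). It had 54.7, 93.3 and 63 CPM in Itga8+ MSCs (70.3 ± 20.3, n = 3), 85.8, 61.5 and 55.9 CPM in Sca-1+ MSCs (67.7 ± 15.9, n = 3) and 18.8, 37.5 and 24 CPM in BLCs (26.7 ± 9.66, n = 3). Itga8+ and Sca-1+ MSCs overlapped (log2 0.054 ± 0.34, FDR 0.934), and every BLC library was below them. The fold change of CD51+CD140a+ MSCs was 52.2 over Itga8+ MSCs, 54.2 over Sca-1+ MSCs and 137 over BLCs (log2 5.71 ± 0.41, 5.76 ± 0.41 and 7.1 ± 0.44, FDR 2.55e-06, 2.93e-06 and 1.00e-06). The level in Sca-1+ MSCs was 2.53 times that in BLCs (log2 of BLCs over Sca-1+ -1.34 ± 0.34, FDR 0.0166). Itga8+ MSCs over BLCs had a log2 value of 1.39 ± 0.34 with an FDR of 0.0557, and the call was lost without Itga8- replicate 1 (1.2, FDR 0.196) or replicate 3 (1.32, FDR 0.18).

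**Figure D2:**
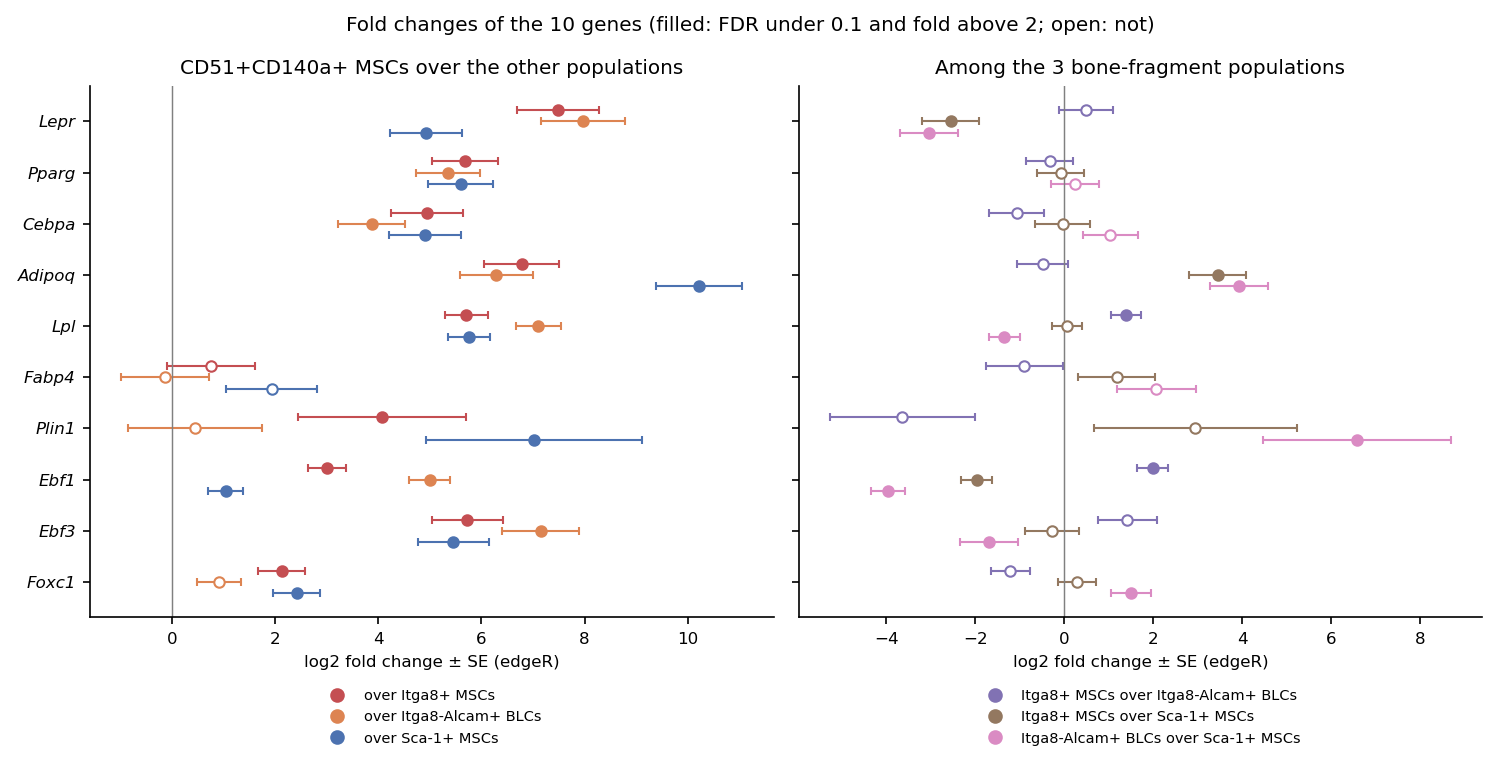
Fitted log2 fold changes of the 10 genes with their SE, for CD51+CD140a+ MSCs over the other populations (left) and among the bone-fragment populations (right). Filled points passed both thresholds. For Plin1 against Sca-1+ MSCs, where no read was counted, the fitted value is no measured fold. Fabp4 is open in all 6 comparisons, and against BLCs on the left only Foxc1 and Plin1 are open beside it.

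Fabp4 was the one gene of the 10 with no call in any comparison of the 4 populations. It carries fatty acids inside fat cells, and also inside macrophages and capillary endothelium. Fabp4 had 5.84, 13.2 and 9.95 CPM in CD51+CD140a+ MSCs and 2.32, 14 and 0.866 CPM in Itga8+ MSCs. The BLC libraries had 4.93, 5.47 and 21.6 CPM and the Sca-1+ libraries 3.43, 2.59 and 1.59 CPM. The highest value of the 12 was in Itga8- replicate 3 and the next in Itga8+ replicate 2, and libraries of CD51+CD140a+ MSCs overlapped with those of both Alcam+ populations. None of the 6 comparisons passed, with log2 values for CD51+CD140a+ MSCs of 0.75 ± 0.85 over Itga8+ MSCs, -0.14 ± 0.85 over BLCs and 1.93 ± 0.89 over Sca-1+ MSCs (FDR 0.521, 0.922 and 0.179). Without Itga8+ replicate 2 the value over Itga8+ MSCs was 2.56 with an FDR of 0.0272, and Fabp4 was then called. The value of Itga8+ MSCs over BLCs was -0.89 ± 0.86, and -2.7 without that library (FDR 0.0918), also a call. BLCs over Sca-1+ MSCs (log2 2.07 ± 0.89, FDR 0.119) passed the test without Itga8- replicate 2 (2.33, FDR 0.0947).

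The sum of 10 myeloid and macrophage markers was 1104, 7343 and 494 CPM in the 3 Itga8+ libraries, 1379, 1680.2 and 2288 in BLCs, 723, 208 and 434 in Sca-1+ MSCs and 168, 139 and 78.9 in CD51+CD140a+ MSCs. In each bone-fragment population Fabp4 was highest in the library with the highest sum, which was not so in CD51+CD140a+ MSCs. Of the 10 markers, C1qa was at 0 in all Sca-1+ libraries and the others were counted in every population. The sum of 8 endothelial markers was 80.4 to 115 CPM in Sca-1+ MSCs, where Fabp4 was lowest on average, and 11.7 to 39.9 CPM in all other libraries. The part of these cells in the level of Fabp4 was not tested. In CD51+CD140a+ MSCs, which had the lowest myeloid sums, Fabp4 was counted with 214, 461 and 309 reads.

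**Figure D3:**
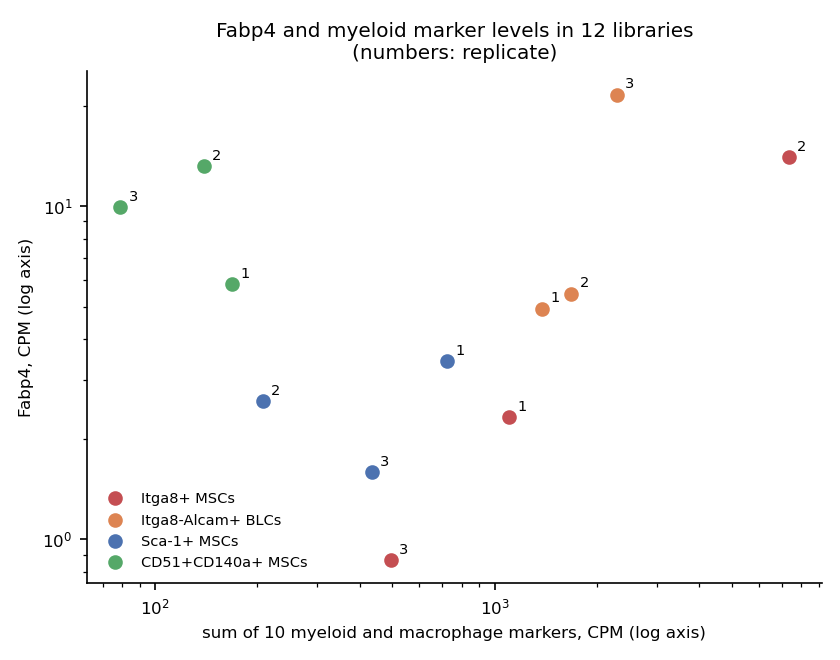
Fabp4 against the sum of 10 myeloid and macrophage markers in each of the 12 libraries, both in CPM on log axes, with replicate numbers beside the points. Itga8+ replicate 2 and Itga8- replicate 3 have the highest sums, 7343 and 2288 CPM, and the highest Fabp4, while CD51+CD140a+ libraries have sums of 78.9 to 168 CPM at 5.84 to 13.2 CPM of Fabp4.

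Perilipin 1 coats the lipid droplet of fat cells, and its gene was near the limit of detection. Plin1 had 1, 60 and 11 reads in the CD51+CD140a+ libraries (0.0273, 1.72 and 0.354 CPM), so that 1 library held most of them. It had 9, 17 and 5 reads in BLCs (0.448, 0.788 and 0.3 CPM), 0, 0 and 2 in Itga8+ MSCs and none in Sca-1+ MSCs. CD51+CD140a+ libraries lay on both sides of the BLC ones (log2 0.44 ± 1.3, FDR 0.824). The call against Itga8+ MSCs had an FDR of 0.0849 with overlapping libraries, and the FDR was 0.114 to 0.339 without Itga8+ replicate 1 or 2 or CD51+CD140a+ replicate 2 or 3. Against the 0 reads of Sca-1+ MSCs, with 3 reads per library as the floor, the mean level was at least 4.58-fold higher in CD51+CD140a+ MSCs (FDR 0.0449) and at least 3.34-fold higher in BLCs (FDR 0.0509). Both calls were lost when any of the 3 Sca-1+ libraries was left out, and the call for CD51+CD140a+ MSCs also without their replicate 2 (FDR 0.153), where the bound was 1.247-fold. Per base of exon, Adipoq stood at 6528 ± 44.5 TPM and Plin1 at 0.584 ± 0.747 TPM in CD51+CD140a+ MSCs.

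Of 13 genes of lipid droplets and triglyceride synthesis, 1 was called higher and 2 lower in CD51+CD140a+ than in Itga8+ MSCs, shares below the 14.3% and 21.2% of all genes. The counts were 0 and 2 against BLCs (14.9% and 20.4% of all genes), and 1 and 2 against Sca-1+ MSCs (9.30% and 11.2%). Against Sca-1+ MSCs the share called lower was above that of all genes. Cidec and Cidea, which enlarge droplets, and Plin5, a perilipin of tissues that burn fat, had no read in any CD51+CD140a+ library. Cidec was also at or under the floor in all Itga8+ and Sca-1+ libraries, and Cidea in all Sca-1+ libraries. The mean of Plin5 was 2.72, 1.81 and 0.836 times the CD51+CD140a+ floor in BLCs, Itga8+ MSCs and Sca-1+ MSCs. Cidea was at 1.04 to 2.91 CPM in Itga8+ MSCs, at least 22.2-fold higher. Plin3, a perilipin found in most cells, was at 46.8 to 56.2 CPM in CD51+CD140a+ MSCs against 88.1 to 144 in Itga8+ MSCs (log2 -1.1 ± 0.27). Gpd1, which makes the glycerol backbone of fat, was the gene called higher than in Itga8+ MSCs, at 1.09 to 4.5 CPM (log2 2.57 ± 0.95). The median log2 fold change of the list was -0.053, -0.43 and 0.29 with genes at 0 set to their bound and genes at the floor in both populations left out, and -0.48, -0.43 and 0.16 as fitted. Without Itga8+ replicate 2, 1 gene rather than 2 was called lower than in Itga8+ MSCs, and the fitted median was -0.24.

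Of 17 genes of lipid uptake, lipolysis and fatty acid synthesis, 3 were called higher and 5 lower in CD51+CD140a+ than in Itga8+ MSCs, beside 14.3% and 21.2% of all genes, and as many against BLCs (14.9% and 20.4% of all genes). Against Sca-1+ MSCs the counts were 2 and 2, beside 9.30% and 11.2%. Slc2a4, the insulin-regulated glucose transporter GLUT4, had 17.2 to 21.8 CPM in CD51+CD140a+ MSCs and 0.467 to 0.982 in Itga8+ MSCs (log2 4.73 ± 0.39). Angptl4, a secreted inhibitor of lipoprotein lipase and a target of PPARs, had 1020.5 to 1373 CPM against 57.1 to 81.1 (log2 4.04 ± 0.34), and was thus high beside the enzyme it inhibits. Mgll, which completes the breakdown of triglycerides, was lower than in Itga8+ MSCs (log2 -3.54 ± 0.48). The median of the 17 was -0.46, -0.92 and -0.15. Without Itga8+ replicate 2, 2 genes were called higher than in Itga8+ MSCs.

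Of 6 other adipokines and adiponectin receptors that could be tested, 1 was called higher and 2 lower in CD51+CD140a+ than in Itga8+ MSCs, with counts of 0 and 2 against BLCs, and 2 and 2 against Sca-1+ MSCs. Of all genes, 14.3% were called higher and 21.2% lower against Itga8+ MSCs. The shares of all genes were 14.9% and 20.4% against BLCs, and 9.30% and 11.2% against Sca-1+ MSCs. The median of the 6 was -0.054, -1.06 and -0.14. Rbp4, a retinol carrier secreted by fat and liver, was lower in CD51+CD140a+ than in Itga8+ MSCs (log2 -3.72 ± 0.64), as was the receptor gene Adipor1 (log2 -1.05 ± 0.22). Nampt was higher (log2 1.07 ± 0.26), a call lost without Itga8+ replicate 2, where the median of the list over Itga8+ MSCs was -0.27. Retn, the gene of resistin, had no read in CD51+CD140a+ or Sca-1+ MSCs. Cdh13, a cell-surface protein that binds adiponectin, had 855 to 1015 CPM in Sca-1+ MSCs, where Adipoq was lowest, and 8.84 to 23.9 CPM in all other libraries, and was chosen for mention after its values were seen.

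Of 6 genes that restrain fat cell formation, 1 was called higher and 2 lower in CD51+CD140a+ than in Itga8+ MSCs, beside 14.3% and 21.2% of all genes. The counts were 0 and 2 against BLCs (14.9% and 20.4% of all genes), and 0 and 3 against Sca-1+ MSCs (9.30% and 11.2%). Dlk1, a membrane protein of preadipocytes, and Wnt10b, a WNT ligand, had no read in CD51+CD140a+ MSCs. Dlk1 was at least 24.6-fold and Wnt10b at least 2.56-fold higher in Itga8+ MSCs, at mean levels of 2.17 and 0.226 CPM. Without Itga8+ replicate 1 the bound of Dlk1 was 7.14-fold. Klf2, which represses Pparg, went the other way (log2 1.47 ± 0.31 over Itga8+ MSCs). So did the sum of the 6 genes, at 198.1 to 286 CPM in CD51+CD140a+ libraries and 117 to 197.7 in all others. The median of the list was -0.74, -0.81 and -1.64 with genes at 0 set to their bound.

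**Figure D4:**
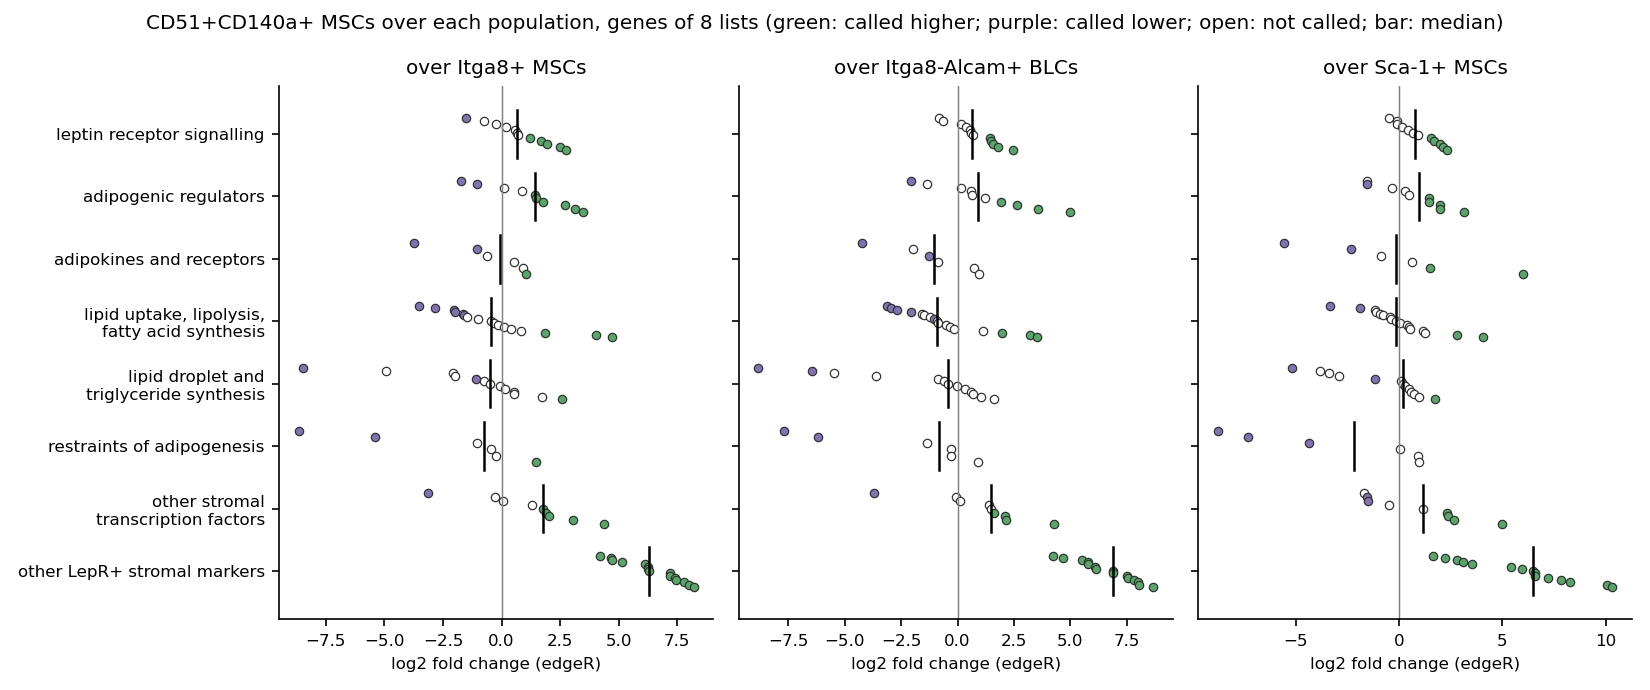
Fitted log2 fold changes of CD51+CD140a+ MSCs over each other population for the genes of 8 lists, with the median of each list as a bar. Genes at 0 in a population are drawn at a fitted value that is no measured fold. All 15 further LepR+ stromal markers are called higher in each panel.

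The stromal transcription factors differed from each other in how steep their pattern was. Ebf1, which B cells also need, had 412, 500.0 and 512 CPM in CD51+CD140a+ MSCs (475 ± 54.5, n = 3) and 216, 252 and 226 CPM in Sca-1+ MSCs (231 ± 18.5, n = 3). The Itga8+ libraries had 34.9, 47.4 and 95.3 CPM (59.2 ± 31.9, n = 3) and the BLC libraries 13.4, 13.7 and 17.6 CPM (14.9 ± 2.35, n = 3). The 4 populations lay at 4 levels with no overlap between libraries. The fold change of CD51+CD140a+ over Sca-1+ MSCs was 2.05 (log2 1.04 ± 0.34, FDR 0.0565), close to the threshold, and the call was lost in 5 of 6 fits that left out a library of either population, all but that without CD51+CD140a+ replicate 1, with log2 values of 0.98 to 1.1. The fold change was 8.02 over Itga8+ MSCs and 31.8 over BLCs (log2 3 ± 0.36 and 4.99 ± 0.4, FDR 9.56e-05 and 5.47e-06). Sca-1+ MSCs had 3.91 times the level of Itga8+ MSCs (log2 of Itga8+ over Sca-1+ -1.97 ± 0.35, FDR 0.00307), and Itga8+ MSCs 3.97 times that of BLCs (log2 1.99 ± 0.35, FDR 0.00944), a call lost in a fit of these 2 populations alone (log2 1.99, FDR 0.16). The sum of 8 B cell markers was 1.38 to 10.0 CPM for CD51+CD140a+ MSCs, 1.17 to 6.04 for Sca-1+ MSCs and 9.65 to 46.2 for the Alcam+ populations. In CD51+CD140a+ MSCs 6 of the 8 were counted, and Pax5 and Ms4a1 were at 0 in all libraries, as Ms4a1 was in BLCs and Sca-1+ MSCs. The part of B cells in the level of Ebf1 was not tested.

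Ebf3, a paralog of Ebf1, was steeper, with 60.9, 62.5 and 98.5 CPM in CD51+CD140a+ MSCs (74 ± 21.2, n = 3) and 0.0996 to 2.44 CPM in the 9 other libraries. The fold change was 52.9 over Itga8+ MSCs, 142 over BLCs and 43.9 over Sca-1+ MSCs (log2 5.72 ± 0.69, 7.15 ± 0.75 and 5.46 ± 0.68, FDR 9.82e-05, 3.69e-05 and 0.00014). The log2 value was 6.39 over Itga8+ MSCs without Itga8+ replicate 2 and 8 over BLCs without Itga8- replicate 3. The TPM of Ebf1 was 4.92 to 7.56 times that of Ebf3 in CD51+CD140a+ libraries, 108.9 to 157 times in Sca-1+ libraries and 16.4 to 127 times in the Alcam+ ones. Sca-1+ MSCs thus had much Ebf1 and little Ebf3. A call for Ebf3 in BLCs against Sca-1+ MSCs (log2 -1.69 ± 0.65, FDR 0.0838) was lost in 5 of 6 fits that left out a library, all but that without Itga8- replicate 3, where the log2 value was -2.54. For Ebf3, 3.85% of the exon bases lie opposite the gene Gm45278.

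A further member of the family, Ebf2, known from brown fat precursors, was highest in Sca-1+ MSCs. It had 104, 110.0 and 76 CPM there, 26.5, 35.5 and 34.9 in CD51+CD140a+ MSCs and 0.831 to 2.25 in the Alcam+ populations. These 3 levels did not overlap, and Ebf2 was lower in CD51+CD140a+ than in Sca-1+ MSCs (log2 -1.58 ± 0.34, FDR 0.00578), where Ebf1 and Ebf3 were higher.

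Foxc1 had the narrowest range of population means of the 3 stromal regulators, taken as the ratio of the highest to the lowest mean. It had 218, 204 and 255 CPM in CD51+CD140a+ MSCs (225 ± 26.4, n = 3) and 155, 136 and 70.5 CPM in BLCs (120.3 ± 44.2, n = 3). The Itga8+ libraries had 71.4, 19.1 and 65 CPM (51.8 ± 28.6, n = 3) and the Sca-1+ libraries 38.4, 46.9 and 41.8 CPM (42.4 ± 4.25, n = 3). The order differed from that of Ebf1, since the mean next to the highest was in BLCs, where 9 osteoblast markers summed to 45193 to 116888 CPM against 2908 to 22055 in all other libraries. The fold change of CD51+CD140a+ MSCs was 4.35 over Itga8+ MSCs and 5.32 over Sca-1+ MSCs (log2 2.12 ± 0.45 and 2.41 ± 0.46, FDR 0.00445 and 0.00266). Over BLCs it was 1.87 (log2 0.91 ± 0.44, FDR 0.135), not past the threshold although the libraries did not overlap. BLCs had 2.84 times the level of Sca-1+ MSCs (log2 1.51 ± 0.44, FDR 0.0314), a call lost without Itga8- replicate 1 (1.24, FDR 0.124) or Sca-1+ replicate 1 (1.44, FDR 0.102). Itga8+ and Sca-1+ MSCs overlapped (log2 0.29 ± 0.43, FDR 0.667).

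Of 9 other stromal transcription factors, Ebf2 among them, 5 were called higher and 1 lower in CD51+CD140a+ than in Itga8+ MSCs, beside 14.3% and 21.2% of all genes. The counts were 4 and 1 against BLCs (14.9% and 20.4%), and 4 and 2 against Sca-1+ MSCs (9.30% and 11.2%), with medians of 1.79, 1.47 and 1.15. Runx1, a regulator of blood and of skeletal stroma, had 517, 287 and 512 CPM in CD51+CD140a+ MSCs against 26 to 91.8 in Itga8+ MSCs (log2 3.05 ± 0.47). Prrx1, which marks limb mesenchyme, was higher than in the Alcam+ populations (log2 2.04 ± 0.32 over Itga8+ MSCs) but had a log2 value of -0.48 ± 0.31 over Sca-1+ MSCs. Sox9, the regulator of cartilage and tendon precursors, was called lower than in each other population (log2 -3.13 ± 0.46 over Itga8+ MSCs).

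Among the 3 bone-fragment populations the calls for the 10 genes did not all go in 1 direction. Between Itga8+ MSCs and BLCs, 2 were called higher, Lpl and Ebf1, and none lower, where 1.66% and 2.16% of all genes were (3.82% in either direction). That count was 0 in a fit of these 2 populations alone and 1 with a replicate block. It was 1 without Itga8- replicate 1 or 3, and 3 without Itga8+ replicate 2, where Fabp4 was called lower. Between Itga8+ and Sca-1+ MSCs, 1 was called higher, Adipoq, and 2 lower, Lepr and Ebf1, against 12.9% and 8.89% of all genes (21.7% in either direction). Between BLCs and Sca-1+ MSCs, 3 were called higher, Adipoq, Foxc1 and Plin1, and 4 lower, Lepr, Lpl, Ebf1 and Ebf3, against 14.5% and 11.9% (26.4% in either direction). The last count, 7 in all, was 4 without Sca-1+ replicate 1. Libraries did not overlap for 3, 3 and 9 of the 10 genes in these comparisons, and for 14.2%, 37.6% and 45.7% of all genes. The medians of the 10 were -0.41, -0.032 and 0.64, with Plin1 left out of the middle value, where it was at the floor in both populations, and those of all genes 0.084, 0.16 and 0.12. These medians moved with single libraries. With each library left out in turn they ranged from -0.69 (without Itga8- replicate 2) to 0.17 (without Itga8- replicate 3), from -0.60 (without Itga8+ replicate 2) to 0.17 (without Sca-1+ replicate 1), and from 0.23 (without Itga8- replicate 1) to 0.83 (without Sca-1+ replicate 1).

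Levels can be set beside each other between genes per base of exon. In CD51+CD140a+ MSCs the order of mean TPM was Adipoq (6528 ± 44.5), Lepr (3479 ± 235), Lpl (1411 ± 341), Pparg (255 ± 34.2), Ebf1 (195 ± 9.95), Foxc1 (155 ± 17.6), Cebpa (67.7 ± 8.37), Ebf3 (32 ± 7.99), Fabp4 (8.53 ± 2.87) and Plin1 (0.584 ± 0.747), each with SD and n = 3. The libraries of neighbours in this order did not overlap. This order of CD51+CD140a+ MSCs was the same with the longest coding transcript of each gene in place of all its exon bases, a choice made after the data were seen, though Fabp4 was then at 31.8 TPM and Lpl at 2672. In Sca-1+ MSCs the order began with Lepr (106 ± 6.97 TPM) and Ebf1 (88.2 ± 6.89), followed by Foxc1 (27 ± 2.58) and Lpl (24.1 ± 6.17), which overlapped, and Adipoq and Pparg overlapped at 5.11 and 4.89. In BLCs Foxc1 (64 ± 32.3) and Adipoq (55.9 ± 26.4) overlapped at the top, as did Adipoq (47.6 ± 9.77) and Foxc1 (32.3 ± 21.1) in Itga8+ MSCs. In Sca-1+ and Itga8+ MSCs the order depended on the length used. With the longest coding transcript, Sca-1+ MSCs had Ebf1 (104 TPM) above Lepr (97.7) and Lpl (44.5) above Foxc1 (19.5), and Itga8+ MSCs had Lpl (39.8), Adipoq (36.9), Ebf1 (24.6) and Foxc1 (23.5), while in BLCs Foxc1 (45.9) and Adipoq (42.7) stayed at the top.

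The genes most like Lepr in their levels over the 12 libraries, by Pearson's r of log2(CPM + 1) among 10548 genes, were Pla2g15 (0.991), Cyp1b1 (0.99), Pcdhb9 (0.989), Csmd1 (0.987) and Ak3 (0.986). Cyp1b1, which metabolises steroids and retinoids, had mean levels of 1974 CPM in the CD51+CD140a+, 90.6 in the Sca-1+, 4.86 in the Itga8+ and 6.21 in the BLC libraries. Those most like Ebf1 were Plpp3 (0.991), Plxdc2 (0.987), Runx1t1 (0.987), Ptgfr (0.984) and Arhgap6 (0.984). Those most like Foxc1 were Vegfa (0.978), Smoc1 (0.953), Lfng (0.942), Dmwd (0.942) and Itpk1 (0.94). Vegfa, the gene of a vascular growth factor, had mean levels of 611 CPM in the CD51+CD140a+, 197 in the BLC, 104 in the Itga8+ and 71.1 in the Sca-1+ libraries, in the same order as Foxc1. An r above 0.95 was reached by 123 genes with Lepr, 36 with Ebf1 and 2 with Foxc1. With 12 libraries in 4 populations these values describe in which populations a gene is high, and libraries of a population share their sort.

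On GRCm38 (GENCODE M21), Lepr lies at chr4:101717404-101815352, Pparg at chr6:115360951-115490399, Cebpa at chr7:35119293-35121928, Adipoq at chr16:23146536-23158028, Lpl at chr8:68880491-68907448, Ebf1 at chr11:44617317-45008091 and Foxc1 at chr13:31806633-31812476, all on the plus strand. Fabp4, at chr3:10204088-10208576, Plin1, at chr7:79720218-79732903, and Ebf3, at chr7:137193673-137314445, lie on the minus strand. All are protein-coding, and counts are per gene, so isoforms of Lepr and Pparg were not separated. Of the 50-base words of each gene, 97.5% or more occur in no other gene.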

How the data were processed

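RNA of 12 sorted samples was amplified by SMART-Seq and sequenced by the authors, who deposited raw counts of reads per Ensembl gene for each library. The submitters' processing notes name FastQC 0.11.7, Trimmomatic 0.38, HISAT2 2.1.0, SAMtools 1.9, featureCounts 1.6.3 and mm10, whereas the study's methods name TopHat with Bowtie2. The annotation release and the strand setting are not given in the sources used here. Of 49585 identifiers, 49326 matched GENCODE M21 symbols. Reads shared between near-identical genes may be lost or split.

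Groups came from the labels. Counts of the 18648 genes with 0.5 CPM or more in 1 library or more were TMM-scaled and fitted with edgeR 4.0.16 (limma 3.58.1, R 4.3.3) by quasi-likelihood, all 12 libraries in 1 fit, for 6 comparisons. Calls needed a Benjamini-Hochberg FDR under 0.1 and a fold above 2. The SE was the log2 fold change over the square root of F. The fit was tested on simulated data. CPM used TMM-scaled totals, and TPM divided counts by the exon bases of the gene. Permutation tests were exact (scipy 1.17.1), and figures used matplotlib 3.10.9 in Python 3.11.15.

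The 10 genes and all lists of pathway and marker genes were chosen with earlier results of these data known. All 10 genes are described. Of each pathway list the text names up to 4 genes, those with the largest changes among calls against Itga8+ MSCs, plus genes that a role or an overlap calls for, and for Lepr, Ebf1 and Foxc1 the 5 most similar genes. Alternatives were RLE scaling, no filter, DESeq2 1.42.0, a fit of 2 populations alone, a replicate block and leaving out each library, with exon models, list counts without Itga8+ replicate 2 and bounds and medians without each library added after the data were seen.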

Additional observations from a re-analysis of the deposited data

How the results depend on the processing

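Over the 60 log2 fold changes of the 10 genes in 6 comparisons, direction and call were kept in all 60 with RLE scaling, in all 60 with no filter beyond 1 count, and in 59 with DESeq2 1.42.0, where Fabp4 in BLCs over Sca-1+ MSCs gained a call. Fits of 2 populations alone kept 53 of the 59 they could give. They lost Lpl and Ebf1 in Itga8+ MSCs over BLCs, where the number of genes called went from 2 to 0, Ebf3 in BLCs over Sca-1+ MSCs, and Plin1 in CD51+CD140a+ over Itga8+ MSCs, and Fabp4 gained 2 calls, over Sca-1+ MSCs in CD51+CD140a+ MSCs and in BLCs. Between same-numbered libraries, the correlation of deviations from the population means was -0.736 to 0.342 and above 0.1 in 5 of 18 pairs. With 3 libraries per population these values cannot tell whether same-numbered samples shared mice. With a replicate block 57 values were kept, Lpl in Itga8+ MSCs over BLCs and Plin1 over Itga8+ MSCs lost their calls (1 gene called in the former comparison), and Plin1 in CD51+CD140a+ MSCs over BLCs reversed from 0.44 to -0.40. The causes were not tested.

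Leaving out each library in turn kept 309 of 360 values. The number of genes called ranged from 1 to 3 for Itga8+ MSCs over BLCs, from 4 to 7 for BLCs over Sca-1+ MSCs, from 8 to 9, 7 to 7 and 7 to 9 for CD51+CD140a+ MSCs over Itga8+ MSCs, BLCs and Sca-1+ MSCs, and was 3 throughout for Itga8+ over Sca-1+ MSCs. Directions that turned had no call in the fit of all libraries. In CD51+CD140a+ MSCs over BLCs, Fabp4 ranged from -0.47 to 0.90 and Plin1 from -1.42 to 1.01. In Itga8+ MSCs over BLCs, Lepr ranged from -0.24 to 1.53, Adipoq from -0.82 to 0.23, Pparg from -0.82 to 0.33 and Fabp4 from -2.7 to 0.11. In Itga8+ over Sca-1+ MSCs, Lpl ranged from -0.22 to 0.26, Pparg from -0.60 to 0.17, Cebpa from -1.001 to 0.47, Fabp4 from -0.67 to 1.62, Ebf3 from -0.97 to 0.078 and Foxc1 from -0.012 to 0.67. In BLCs over Sca-1+ MSCs, Pparg ranged from -0.45 to 0.61. Scaled by library totals instead of TMM, 36 of 40 population means moved by less than 1 SD. The other 4, all in CD51+CD140a+ MSCs, became 6772 CPM for Lepr, 2493 for Adipoq, 208 for Pparg and 49.2 for Cebpa. Plin1 had the fewest reads of the 10 genes in each population but BLCs, where Ebf3 had fewer.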
